A study of Rattus norvegicus with 18 samples.

Results

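Macrophages are among the cells that live in the outer coat of an artery, and 9 genes that mark them or feed them were followed in cultured rat aortic rings given an angiogenic factor. The genes were Cd68, Cd14, Coro1a, Gpnmb, Laptm5, Cybb, Tyrobp, Csf1r and Csf1. Every probe set annotated to 1 of these genes and to no other was taken, which gave 14 probe sets of the 31256 on both array types. All 9 genes, of 13811 named on the arrays, had a probe set on the RAE230A array, and Cybb, Laptm5 and Csf1 together had another 5 probe sets on the RAE230B array (A and B in the plots). None of the 14 probe sets differed between any pair of treatments after adjustment over all probe sets. Several differences changed in size or sign when 1 or 2 of the 9 RNAs were left out.

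Rings 2 mm wide were taken from the thoracic aorta of 3 male Fisher 344 rats aged 5 weeks and kept in serum-free medium for 14 days. On day 13, rings of the VEGF group received 10 ng/ml of VEGF. On the same day, rings of the Ang1 group received 100 ng/ml of Ang1 together with 5 µg/ml of an antibody to its poly-histidine tag. Both were left for 20 hours by the sample labels, where the series' design text gives 18 hours. The untreated group received neither. The antibody was given only with Ang1, so the protein and the antibody cannot be told apart. Each of the 3 groups held 3 RNAs, each from several pooled rings, and each RNA was hybridised to both array types, which made 18 samples. The rings hold endothelial cells, smooth muscle cells, fibroblasts and macrophages at once, so that fewer cells of a type and less RNA per cell cannot be told apart. Per the series' design text, each of the 3 animals gave 1 RNA to each group, so the groups share their animals. Which replicate number belongs to which animal is not in the labels, and p-values measure the spread between these RNAs.

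Monocytes and macrophages depend for survival and growth on colony stimulating factor 1, the product of Csf1, which is made by fibroblasts, endothelial and smooth muscle cells and is read by the receptor tyrosine kinase encoded by Csf1r. The other genes serve what macrophages do: Cd14 binds bacterial lipopolysaccharide for Toll-like receptors, Cybb encodes the catalytic subunit of the phagocyte NADPH oxidase, Tyrobp (DAP12) carries signals from receptors that lack their own signalling tail, Coro1a binds actin, and Cd68, Laptm5 and Gpnmb encode proteins of lysosomes and other inner membranes. Several are not exclusive to macrophages: Coro1a, Laptm5, Cybb and Tyrobp are used by other leukocytes, and Gpnmb, Cd14 and Cybb by some non-blood cells. In aortic rings, macrophages that migrate out of the outer coat are known to accompany the sprouting vessels.

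Macrophage regulators bind short motifs near the starts of such genes, and the promoters of 4 members whose values are followed most closely below are printed to show where 1 such motif lies. The motif searched was the purine-rich core bound by the myeloid factor PU.1, GAGGAA on either strand (read as TTCCTC on the other), and it stands in capitals. Each line runs from 250 bases before the gene's start to 50 bases after it, 5′ to 3′ on the gene's strand, from RefSeq on GRCr8. Cybb lies at chrX:16065016-16065315, minus strand; Gpnmb at chr4:79340878-79341177, plus strand; Csf1r at chr18:56834129-56834428, plus strand; and Coro1a at chr1:190731054-190731353, minus strand.
Cybb: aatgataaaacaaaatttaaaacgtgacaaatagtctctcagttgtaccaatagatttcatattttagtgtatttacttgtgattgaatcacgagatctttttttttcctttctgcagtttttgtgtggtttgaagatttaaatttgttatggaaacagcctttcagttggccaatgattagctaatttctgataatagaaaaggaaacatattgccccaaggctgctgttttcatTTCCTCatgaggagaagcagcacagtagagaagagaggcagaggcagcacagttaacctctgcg
Gpnmb: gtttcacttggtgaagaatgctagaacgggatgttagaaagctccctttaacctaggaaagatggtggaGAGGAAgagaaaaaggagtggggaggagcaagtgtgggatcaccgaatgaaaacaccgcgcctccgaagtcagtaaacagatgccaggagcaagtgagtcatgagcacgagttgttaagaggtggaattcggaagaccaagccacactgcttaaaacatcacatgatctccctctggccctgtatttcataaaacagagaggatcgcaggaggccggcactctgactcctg
Csf1r: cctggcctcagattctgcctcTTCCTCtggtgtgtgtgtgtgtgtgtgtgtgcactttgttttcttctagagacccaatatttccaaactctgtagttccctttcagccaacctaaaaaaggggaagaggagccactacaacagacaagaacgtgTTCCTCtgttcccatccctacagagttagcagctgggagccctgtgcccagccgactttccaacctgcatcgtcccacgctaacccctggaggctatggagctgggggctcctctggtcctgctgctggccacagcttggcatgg
Coro1a: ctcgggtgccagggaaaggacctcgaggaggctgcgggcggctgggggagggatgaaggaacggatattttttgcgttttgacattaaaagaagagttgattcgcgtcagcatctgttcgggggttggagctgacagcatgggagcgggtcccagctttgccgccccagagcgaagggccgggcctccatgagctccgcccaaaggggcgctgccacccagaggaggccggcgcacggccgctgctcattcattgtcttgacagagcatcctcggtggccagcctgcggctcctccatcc
The core was in 6 of the 7 member promoters in the table, against 27.6% of 33469 promoters of the same length, and Cybb held 1 copy, Gpnmb 1, Csf1r 2 and Coro1a none. Cd68 and Cd14 held 2 copies each, Laptm5 held 1, and the promoters of Tyrobp and Csf1 were not analysed here. The E-box CACGTG, a motif bound by the lysosomal regulators of the MiT family, was in 0 of the 7 and in 6.42% of all promoters. Only this exact sequence was searched, so other sites for that family are not covered. These matches are a description of letters, and no binding was measured.

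Levels are given as log2 of the deposited signal plus 16 after quantile normalisation, so that a difference of 1 is a ratio of 2. They can be compared between samples for 1 probe set, not between probe sets. All 14 member probe sets had a mean level above the 40th percentile of their array type, which was the filter for testing and lay at 6.52 on RAE230A and 6.71 on RAE230B. Among the wider macrophage markers, 14 of 20 on RAE230A and 9 of 9 on RAE230B passed that filter. Neutrophil markers did not pass it (0 of 3 on RAE230A and 0 of 1 on RAE230B), while 2 of 7 lymphocyte markers, 2 of 6 mast cell markers and 1 of 3 dendritic cell markers on RAE230A did.

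The libraries Ang1 replicate 2 and untreated replicate 2 stood apart from the other 7 RNAs on both array types. Their median correlation with the other libraries was 0.817 for Ang1 replicate 2 and 0.899 for untreated replicate 2 on RAE230A, against 0.934 to 0.965 for the other 7. On RAE230B it was 0.662 and 0.848 for the same libraries, against 0.882 to 0.909. The signal at the 3′ end of the Gapdh transcript was 446.9 in Ang1 replicate 2 and 64.4 in untreated replicate 2 on RAE230A, against 2217.8 to 3246.8 in the other 7. Untreated replicate 1 was labelled by a 2-cycle protocol and the other RNAs by the standard one, so labelling and RNA cannot be told apart there. Of the 3 untreated RNAs it was the highest at 7 of 14 member probe sets and the lowest at 3. The ratio of 3′ to 5′ signal for beta-actin, a measure of RNA length, was 8.79 to 12.4 in VEGF arrays of RAE230A. It was 6.18 to 8.29 in Ang1 and 1.86 to 7.70 in untreated arrays of that type. The 6.18 and 1.86 were those of Ang1 replicate 2 and untreated replicate 2, the libraries with the low Gapdh signal. On RAE230B the ratio was 5.24 to 11.9 in VEGF, 1.25 to 7.38 in Ang1 and 3.02 to 5.08 in untreated arrays. The part of this ratio in the differences was not tested.

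**Figure D1:**
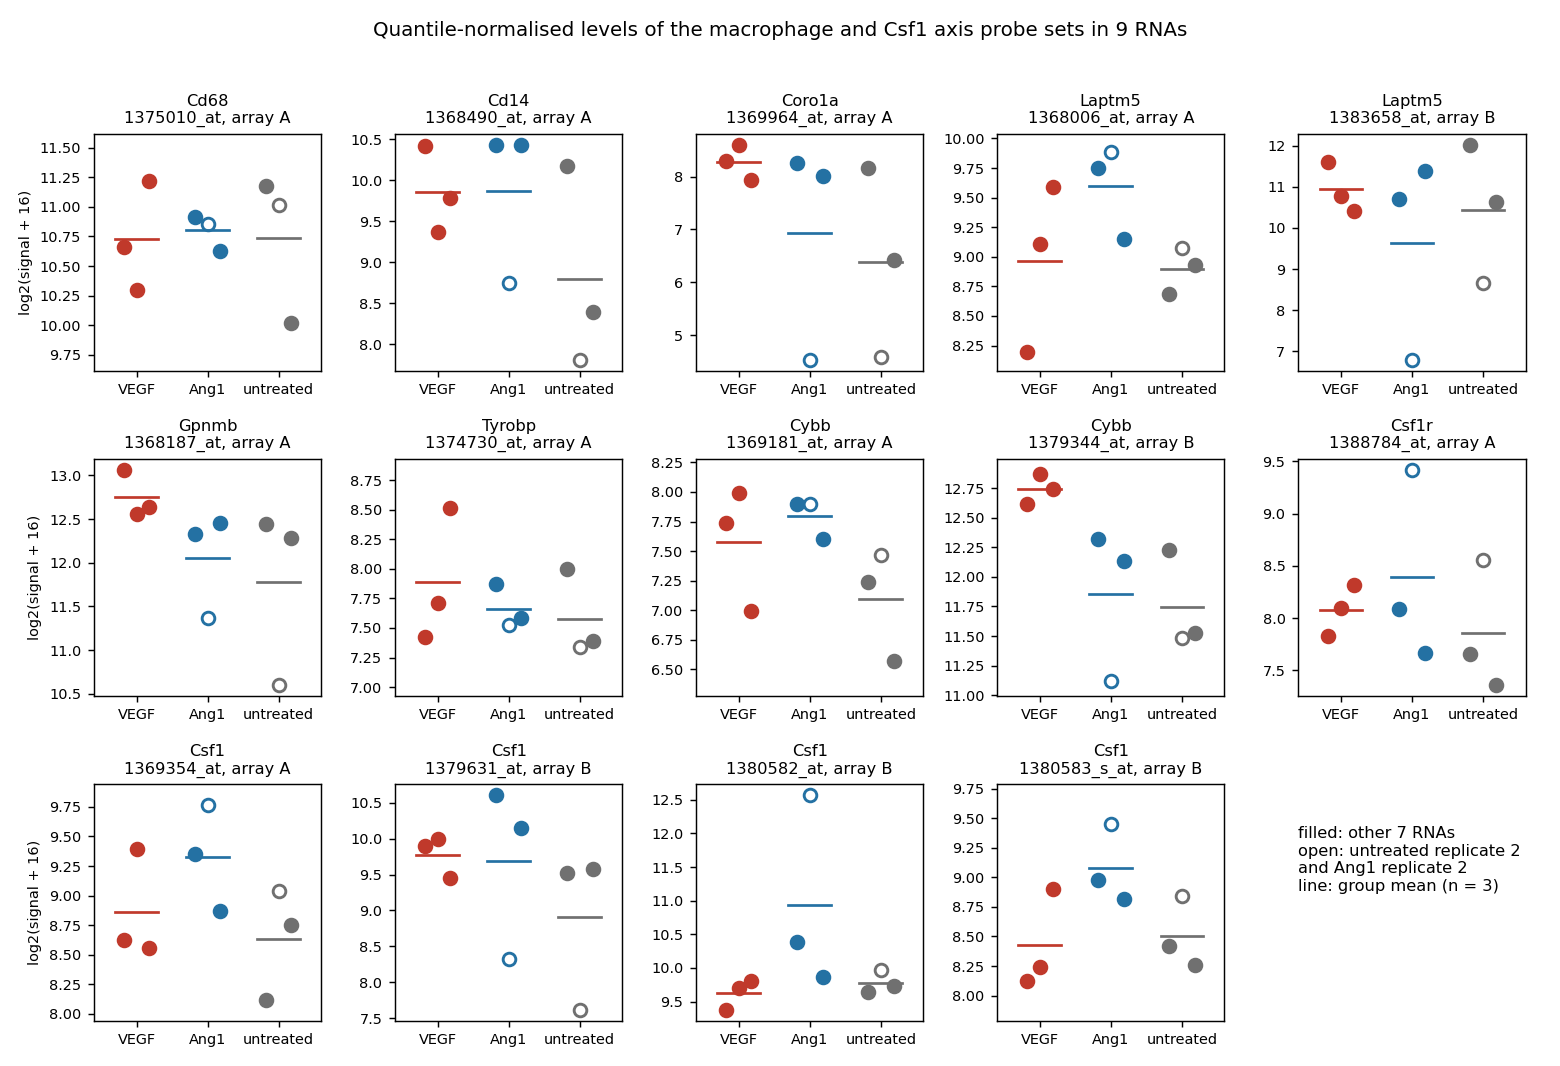
Log2 level (signal plus 16, quantile normalised) of each of the 14 member probe sets in each of the 9 RNAs, 1 point per RNA, with VEGF, Ang1 and untreated from left to right, a line at each group mean, and open points for untreated replicate 2 and Ang1 replicate 2. The 3 VEGF points of Cybb on RAE230B and of Gpnmb lie above all untreated points, and Coro1a and the RAE230B probe set of Laptm5 have low points in Ang1 replicate 2 and untreated replicate 2.

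Cybb, the oxidase subunit, gave the most regular difference for VEGF. Its probe set 1379344_at on RAE230B read 12.61, 12.87 and 12.75 in VEGF rings, 12.32, 11.12 and 12.13 in Ang1 rings, and 12.23, 11.49 and 11.52 in untreated rings. All 3 VEGF values were above all 6 others, and the VEGF mean was 12.74 ± 0.13 (SD, n = 3). The difference was 1.00 ± 0.35 (SE) for VEGF against untreated and 0.89 ± 0.35 for VEGF against Ang1, with unadjusted p-values in limma of 0.017 and 0.030 and adjusted p-values of 0.999 and 0.561. For Ang1 against untreated the difference was 0.11 ± 0.35. Without Ang1 replicate 2 and untreated replicate 2, the VEGF differences were 0.85 ± 0.26 against untreated and 0.49 ± 0.26 against Ang1.

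The RAE230A probe set of Cybb, 1369181_at, ordered the treatments differently. It read 7.74, 7.99 and 6.998 in VEGF rings, 7.90, 7.90 and 7.60 in Ang1 rings, and 7.24, 7.47 and 6.57 in untreated rings. Here all Ang1 values lay above all untreated ones, while VEGF replicate 3 fell inside the untreated range. The differences were 0.71 ± 0.35 for Ang1 against untreated, 0.48 ± 0.35 for VEGF against untreated and -0.23 ± 0.35 for VEGF against Ang1. Untreated replicate 3 was the lowest of the 9 RNAs, and without it the first 2 differences were 0.44 and 0.22. The 2 Cybb probe sets disagreed on which treatment had the higher level. Both were above 0 for VEGF against untreated; for Ang1 against untreated the RAE230B probe set gave between -1.08 and 0.48 over the alternatives and changed sign in 7 of 19.

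Gpnmb, which encodes a membrane glycoprotein of macrophages and other cells rich in lysosomes, also separated VEGF rings from the rest. Its level was 13.06, 12.56 and 12.64 in VEGF rings, 12.33, 11.37 and 12.45 in Ang1 rings, and 12.44, 10.60 and 12.28 in untreated rings. The VEGF values were above all others, but the lowest of them was only slightly above the highest of the Ang1 and untreated values. The mean difference of VEGF against untreated was 0.98 ± 0.46 and was carried by untreated replicate 2: it was 0.40 without that library and 0.33 ± 0.17 without both libraries that stood apart. For VEGF against Ang1 it was 0.70 ± 0.46 with all RNAs and 0.31 ± 0.17 without both.

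For VEGF against untreated, 2 of 14 probe sets were higher without overlap (Gpnmb and Cybb on RAE230B), against 3.63% of all tested probe sets of RAE230A and 2.53% of RAE230B, and 0 were lower, against 4.81% and 3.91%. For Ang1 against untreated, 2 of 14 were (Laptm5 and Cybb on RAE230A), against 3.57% and 8.73%, and 0 were lower, against 5.54% and 8.76%. For VEGF against Ang1, Gpnmb and Cybb on RAE230B were higher (background 3.77% for the first array type and 6.01% for the second), and the Csf1 probe set 1380582_at was lower (background 4.3% and 9.52%). With 2 or 3 probe sets a comparison, these shares describe the members and do not set them apart from other probe sets.

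Cd14, the lipopolysaccharide co-receptor, had nearly the same mean in both treated groups. It read 10.41, 9.37 and 9.79 in VEGF rings, 10.43, 8.75 and 10.43 in Ang1 rings, and 10.17, 7.81 and 8.39 in untreated rings. Untreated replicate 1 lay within the treated range and the other 2 untreated RNAs lay below every treated one. The differences from untreated were 1.07 ± 0.63 for VEGF and 1.08 ± 0.63 for Ang1, and that between VEGF and Ang1 was -0.014 with a 95% interval of -1.41 to 1.38. Without both libraries that stood apart they were 0.58 ± 0.49 for VEGF and 1.16 ± 0.53 for Ang1 against untreated; without untreated replicate 1, they were 1.74 and 1.76.

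Coro1a, the leukocyte actin-binding protein coronin 1A, had its lowest values in the 2 libraries that stood apart. The level was 8.30, 8.60 and 7.94 in VEGF rings, 8.26, 4.53 and 8.004 in Ang1 rings, and 8.16, 4.58 and 6.42 in untreated rings. The low values were those of Ang1 replicate 2 and untreated replicate 2, whose deposited signals were 16.3 and 6.8, near or below the 16 added before the logarithm, so that the size of a difference against them depends on that number: VEGF against untreated was 2.43 with 1 added and 1.28 with 64 added. The difference was 1.89 ± 1.01 for VEGF against untreated and 1.35 ± 1.01 for VEGF against Ang1. Without both libraries it was 1.03 ± 0.46 against untreated and 0.15 ± 0.46 against Ang1, with untreated replicate 3 the low value that remained.

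Laptm5, a lysosomal membrane protein of blood cells, was read by a probe set on each array type. On RAE230A, probe set 1368006_at read 8.196, 9.11 and 9.59 in VEGF rings, 9.75, 9.88 and 9.15 in Ang1 rings, and 8.69, 9.07 and 8.93 in untreated rings. The 3 Ang1 values lay above the 3 untreated values, by 0.70 ± 0.38 on average, and VEGF values lay on both sides of them, with a difference of 0.069 ± 0.38. On RAE230B, probe set 1383658_at read 11.59, 10.79 and 10.42 in VEGF rings, 10.70, 6.80 and 11.37 in Ang1 rings, and 12.03, 8.65 and 10.62 in untreated rings. This second probe set gave 0.50 ± 1.12 for VEGF against untreated and, with the opposite sign to the first, -0.81 ± 1.12 for Ang1 against untreated, and the same Ang1 replicate 2 that was the highest of 9 on RAE230A was the lowest of 9 on RAE230B. Without both libraries that stood apart, it gave -0.40 ± 0.48 and -0.30 ± 0.53.

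Cd68, a lysosomal glycoprotein widely used to stain macrophages, had group means close to each other. It read 10.66, 10.30 and 11.22 in VEGF rings, 10.92, 10.86 and 10.63 in Ang1 rings, and 11.17, 11.01 and 10.01 in untreated rings. The group means were 10.72 ± 0.47 for VEGF, 10.80 ± 0.15 for Ang1 and 10.73 ± 0.63 for untreated (SD, n = 3 each). The difference of VEGF from untreated was -0.0097, with a 95% interval of -0.78 to 0.77, and that of Ang1 from untreated was 0.067, with an interval of -0.71 to 0.84. These intervals do not show that the levels were equal.

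Tyrobp, the DAP12 adaptor, had overlapping groups. It read 7.42, 7.71 and 8.52 in VEGF rings, 7.87, 7.53 and 7.59 in Ang1 rings, and 8.002, 7.34 and 7.39 in untreated rings. Its differences from untreated were 0.31 ± 0.34 for VEGF and 0.085 ± 0.34 for Ang1. VEGF replicate 3 was the highest of the 9, and without it the VEGF difference was -0.0089.

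Csf1r, the receptor, read 7.83, 8.09 and 8.31 in VEGF rings, 8.08, 9.42 and 7.66 in Ang1 rings, and 7.65, 8.55 and 7.36 in untreated rings. The 2 highest values were those of Ang1 replicate 2 and untreated replicate 2, the libraries that stood apart, and the groups overlapped. With all RNAs the difference from untreated was 0.22 ± 0.47 for VEGF and 0.53 ± 0.47 for Ang1. Without both libraries it was 0.60 ± 0.27 for VEGF and 0.38 ± 0.30 for Ang1, and VEGF against Ang1 turned to 0.21, against -0.31 with all RNAs.

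Its ligand gene Csf1 was higher in Ang1 than in untreated rings on average at each of 4 probe sets, without passing the test at any. The RAE230A probe set 1369354_at read 8.63, 9.40 and 8.56 in VEGF rings, 9.35, 9.76 and 8.87 in Ang1 rings, and 8.12, 9.04 and 8.75 in untreated rings. Groups overlapped, and the difference of Ang1 from untreated was 0.69 ± 0.37 with all RNAs and 0.69 ± 0.39 without both libraries that stood apart. On RAE230B, 1379631_at read 9.89, 9.99 and 9.45 in VEGF rings, 10.61, 8.32 and 10.15 in Ang1 rings, and 9.52, 7.61 and 9.58 in untreated rings. The libraries that stood apart were the lowest of their groups here; Ang1 against untreated was 0.79 ± 0.65 with them and 0.86 ± 0.32 without them, where the unadjusted p in limma was 0.024.

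The remaining pair of Csf1 probe sets, 1380582_at and 1380583_s_at, was designed on 1 and the same transcript sequence, so they are not independent, and the suffix of the second marks probes that may match several transcripts. Probe set 1380582_at read 9.37, 9.69 and 9.80 in VEGF rings, 10.39, 12.57 and 9.86 in Ang1 rings, and 9.64, 9.97 and 9.73 in untreated rings. Ang1 replicate 2 was far above the other 8 RNAs. The difference of VEGF from Ang1 was -1.32 ± 0.58 with all RNAs (unadjusted p in limma of 0.046, adjusted 0.561) and -0.53 ± 0.29 without the libraries that stood apart; Ang1 against untreated was 1.16 ± 0.58 and 0.46 ± 0.32. Probe set 1380583_s_at read 8.12, 8.25 and 8.90 in VEGF rings, 8.98, 9.45 and 8.81 in Ang1 rings, and 8.42, 8.84 and 8.26 in untreated rings, with a difference of Ang1 from untreated of 0.57 ± 0.34. For VEGF against untreated, the 4 Csf1 probe sets gave 0.22, 0.87, -0.16 and -0.082, in the order described, which is no common direction. For Ang1 against untreated, the smallest values over the 19 alternatives were 0.33, 0.14, 0.20 and 0.074, in the same order. With 1 library left out at a time the smallest were 0.43, 0.14, 0.37 and 0.41.

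**Figure D2:**
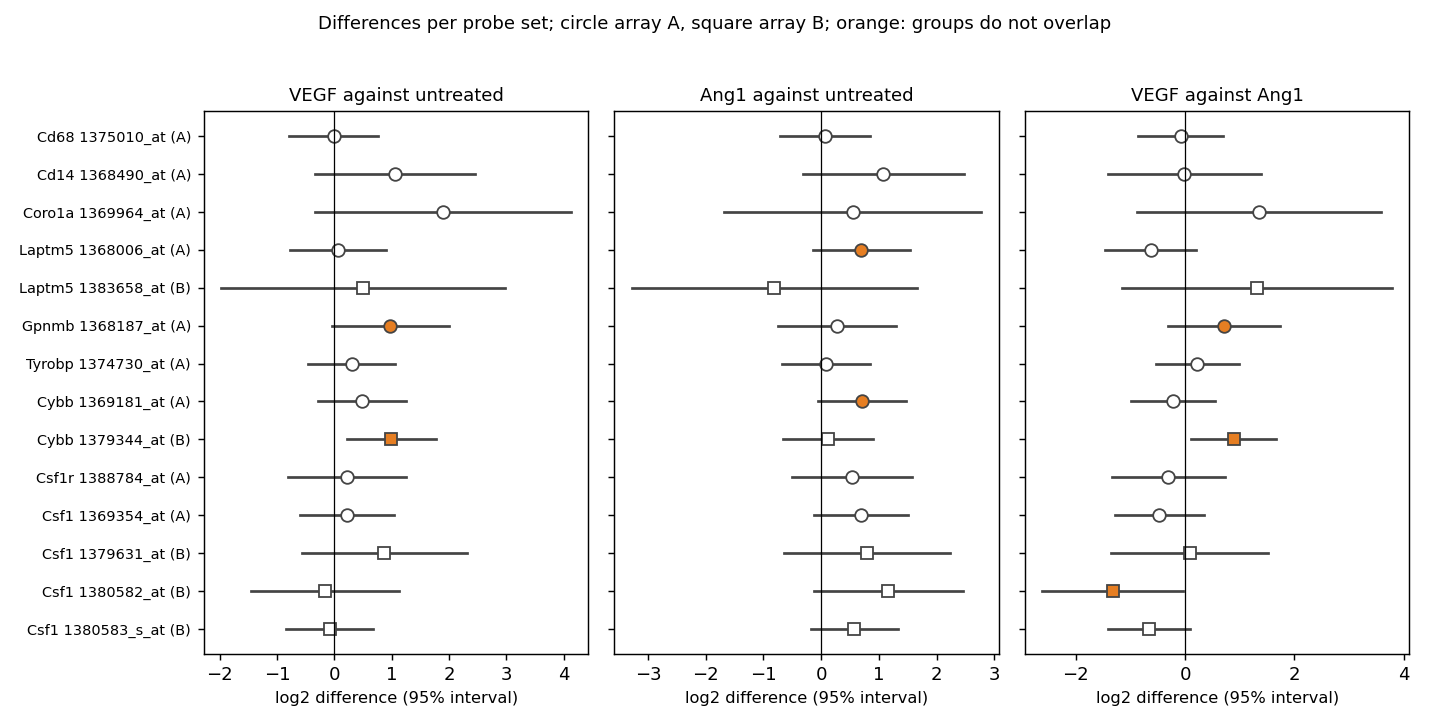
Log2 difference of each member probe set in the 3 comparisons, with the 95% interval from limma as a bar and 0 as a line. Of the 42 intervals, those that leave 0 out before any adjustment are Cybb on RAE230B for VEGF against untreated and against Ang1, and Csf1 1380582_at for VEGF against Ang1.

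Over all members, 11 of 14 probe sets had a difference above 0 for VEGF against untreated, 13 of 14 for Ang1 against untreated and 6 of 14 for VEGF against Ang1. Among all tested probe sets the share above 0 was 49.2%, 47% and 52.2% for RAE230A, and 48.9%, 49.2% and 52.4% for RAE230B, in the same order of comparisons. The first 2 comparisons share the untreated RNAs, so their counts are not separate observations. At an unadjusted p below 0.05 there was 1 member for VEGF against untreated, 0 for Ang1 against untreated and 2 for VEGF against Ang1, where the background was 1.65%, 3.17% and 1.99% of probe sets on RAE230A and 0.72%, 10.5% and 8.48% on RAE230B. After adjustment 0 of 14 members and 0% of all probe sets passed in each comparison. The adjusted p-values of the members ranged from 0.473 to 1.00.

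Which RNAs carried the counts differed by gene. Ang1 replicate 2 and untreated replicate 2 were both below the other 7 RNAs at 5 of 14 member probe sets, namely Gpnmb, Coro1a, and the RAE230B probe sets Cybb 1379344_at, Laptm5 1383658_at and Csf1 1379631_at. At another 5, namely Csf1r, Laptm5 on RAE230A, and Csf1 1369354_at, 1380582_at and 1380583_s_at, Ang1 replicate 2 was the highest of the 9. Untreated replicate 2 was second highest at Csf1r. Counted from the lowest of the 9, it ranked 4, 6, 7 and 6 at the other 4 of these, in the order named. Without the 2 libraries, 12 of 14 probe sets were above 0 for VEGF against untreated, 13 of 14 for Ang1 against untreated and 5 of 14 for VEGF against Ang1. With 1 library left out, the count for Ang1 against untreated was 9 of 14 without untreated replicate 2. It was 10 of 14 without untreated replicate 3 or without Ang1 replicate 1, and 14 of 14 without Ang1 replicate 2. For VEGF against untreated the count ranged from 9 of 14 without VEGF replicate 3 to 13 of 14 without VEGF replicate 1.

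**Figure D3:**
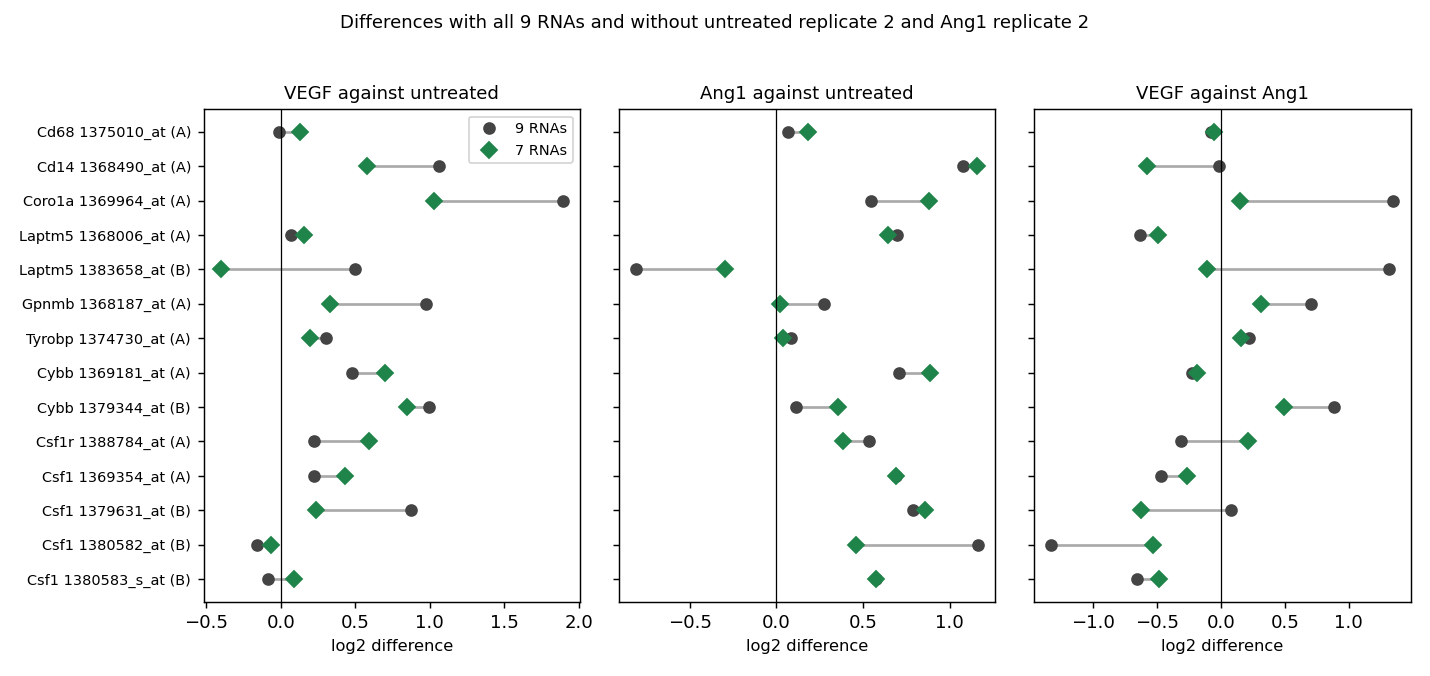
Log2 difference of each member probe set with all 9 RNAs (circles) and with the 7 RNAs left without untreated replicate 2 and Ang1 replicate 2 (diamonds), 1 panel per comparison. For VEGF against untreated, Coro1a is at 1.03 with 7 RNAs and 1.89 with 9, Cybb on RAE230B is at 0.85 and 1.00, and Laptm5 on RAE230B changed sign.

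The wider set of macrophage markers depended on another library. On RAE230A, 9 of 14 such genes were above 0 for VEGF against untreated (median 0.21), 8 of 14 for Ang1 against untreated (median 0.077) and 10 of 14 for VEGF against Ang1 (median 0.14), and 0 passed the test. The medians of all probe sets in these comparisons were -0.0064, -0.030 and 0.021. The mean of these 14 genes, each centred on its mean over the 9 RNAs, was 0.094 to 0.25 in VEGF rings and -0.084 to 0.044 in Ang1 rings. Among untreated rings it was 0.18, 0.17 and -0.79, the last being replicate 3. On RAE230B, where 7 of 9 genes were above 0 for VEGF and 6 of 9 for Ang1 against untreated, untreated replicate 3 was again the low one at -0.69, against -0.060 and 0.26 for the other 2 untreated RNAs.

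Leaving libraries out moved that list both ways. Without Ang1 replicate 2 and untreated replicate 2, all 14 genes on RAE230A were above 0 for VEGF (median 0.49) and 13 of 14 for Ang1 against untreated (median 0.22). Without untreated replicate 3, 6 of 14 were above 0 for VEGF (median -0.14) and 5 of 14 for Ang1 (median -0.24). The member genes on RAE230A, with Csf1 among them, were above 0 in 8 of 9 for VEGF and 9 of 9 for Ang1 with all RNAs (medians 0.31 and 0.55), and in 7 of 9 for each without untreated replicate 3 (medians 0.22 and 0.53). Untreated replicate 3 had a Gapdh 3′ signal of 2217.8 on RAE230A, the lowest of the 7 RNAs that did not stand apart, and a median correlation of 0.954, within their range.

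Adgre1 (F4/80, an adhesion receptor that marks rodent macrophages) read 11.52, 11.55 and 11.34 in VEGF rings, 12.17, 9.45 and 12.32 in Ang1 rings, and 10.34, 10.62 and 10.32 in untreated rings on RAE230B. VEGF values were above all untreated values, by 1.04 ± 0.63 with all RNAs and 1.16 ± 0.23 without the libraries that stood apart. Ang1 against untreated was 0.88 ± 0.63 with all RNAs and 1.95 ± 0.25 without them (adjusted p in limma of 0.547 and 0.104), Ang1 replicate 2 being the lowest of the 9. Cd163, the haemoglobin scavenger receptor of resident macrophages, read 7.38, 7.20 and 7.40 in VEGF rings, 8.32, 8.84 and 7.54 in Ang1 rings, and 7.38, 7.17 and 6.69 in untreated rings. It was higher in Ang1 than in untreated rings by 1.15 ± 0.37, without overlap, with an unadjusted p in limma of 0.0099 and an adjusted p of 0.466, and by 0.89 ± 0.37 without the libraries that stood apart.

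Complement genes made by macrophages had differences above 0 for VEGF, with wide errors. C1qb was 0.81 ± 0.37 higher in VEGF than in untreated rings, and C1qa 1.70 ± 0.96, and neither passed the test. C1qa was at 7.41 in Ang1 replicate 2 and 6.48 in untreated replicate 2, against at least 9.11 in the other 7 RNAs, and its VEGF difference without these libraries was 0.59 ± 0.41; that of C1qb was 0.48 ± 0.31. Ctss, which encodes the lysosomal protease cathepsin S, had a difference of -0.51 ± 0.39 for VEGF against untreated with all RNAs and 0.011 ± 0.23 without them. It was lower without overlap in VEGF than in Ang1 rings, by -0.33 ± 0.39 and -0.31 ± 0.23. On RAE230B Hcls1, a leukocyte actin regulator, had 0.58 ± 0.34 for VEGF and 0.68 ± 0.34 for Ang1 against untreated, the second without overlap, and 0.57 ± 0.35 and 0.59 ± 0.39 without the 2 libraries.

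The partners of the oxidase were read beside Cybb. On RAE230A, 3 of 4 partner genes passed the filter, with 2 above 0 for VEGF and 3 for Ang1 against untreated (medians 0.55 and 0.48). Without the libraries that stood apart 3 of 3 were above 0 for each (medians 0.27 and 0.63). Without untreated replicate 3 it was 2 of 3 for each (medians 0.28 and 0.71). Cyba, the membrane partner of the Cybb protein, differed from untreated by 0.70 ± 0.40 for VEGF and 0.48 ± 0.40 for Ang1, and by 0.27 ± 0.33 and 0.042 ± 0.37 without the libraries that stood apart. Rac2, the blood-cell GTPase that activates the oxidase, read 8.45, 8.27 and 9.08 in VEGF rings, 9.21, 8.86 and 9.30 in Ang1 rings, and 8.30, 8.34 and 7.51 in untreated rings. All Ang1 values were above all untreated ones, with a difference of 1.07 ± 0.34 (unadjusted p in limma of 0.0093, adjusted 0.953), and of 1.38 ± 0.38 without the libraries that stood apart. On RAE230B, both of the partners measured were above 0 in both comparisons (medians 0.47 for VEGF and 0.83 for Ang1). Both stayed above 0 without the 2 libraries (medians 0.19 and 0.29) and without untreated replicate 3 (medians 0.62 and 0.97). Rac1, the widely expressed relative of Rac2, had 1.43 ± 0.57 for Ang1 on RAE230B with all RNAs and 0.39 ± 0.39 without the 2 libraries. Its RAE230A probe set read 12.43, 11.20 and 12.51 in Ang1 rings and 11.78, 12.48 and 11.71 in untreated rings. Those groups overlapped, with Ang1 replicate 2 the lowest Ang1 RNA and untreated replicate 2 the highest untreated one. Leaving out these 2 libraries raised the difference, to 0.63 ± 0.27. Ncf4, a cytosolic subunit, differed from untreated by 0.19 ± 0.33 for VEGF and 0.22 ± 0.33 for Ang1 with all RNAs.

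Genes around the Csf1 receptor, other than Csf1 and Csf1r, gave 8 of 9 above 0 for VEGF against untreated (median 0.28) and 6 of 9 for Ang1 (median 0.29) on RAE230A, and 8 of 9 (median 0.34) and 9 of 9 (median 0.54) without the libraries that stood apart. Untreated replicate 3 was the lowest of the 9 RNAs in this list on RAE230A. Without it, 7 of 9 genes were above 0 for VEGF (median 0.18) and 5 of 9 for Ang1 (median 0.21). None passed after adjustment. Csf2rb, the beta chain shared by receptors of related cytokines, and Inpp5d, a lipid phosphatase that restrains their signalling, were higher in all Ang1 than in all untreated RNAs, by 0.74 ± 0.29 and 0.75 ± 0.29 (unadjusted p in limma of 0.028 for each). Csf2rb lay low, at 6.30, 6.38 and 6.41 in untreated RNAs, where the filter level of RAE230A was 6.52. Ang1 replicate 2 was the highest of the 9 RNAs for both genes, at 7.46 for Csf2rb and 8.35 for Inpp5d. Without the libraries that stood apart the differences of Csf2rb and Inpp5d were 0.60 ± 0.29 and 0.54 ± 0.28. On RAE230B, 5 of 7 were above 0 for VEGF and 3 of 7 for Ang1 (medians 0.24 and -0.033), and 4 of 7 and 5 of 7 without them (medians 0.042 and 0.032). Without untreated replicate 3 these were 4 of 7 and 3 of 7 (medians 0.074 and -0.034). Il34, the second ligand of the Csf1 receptor, differed by -0.26 ± 0.34 for VEGF against untreated with all RNAs. Its difference was -0.14 ± 0.28 without the libraries that stood apart.

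Receptors and kinases of the DAP12 pathway were above 0 in 3 of 4 for VEGF and 4 of 4 for Ang1 against untreated on RAE230A (medians 0.29 and 0.18), and in 1 of 4 for each on RAE230B (medians -0.23 and -0.32). Without untreated replicate 3 the medians were 0.23 and 0.054 on the first array type and -0.41 and -0.43 on the second. Without the 2 libraries that stood apart they were 0.16 and 0.27 on the first array type and -0.16 and -0.13 on the second. Syk, the kinase that DAP12 recruits, differed by 0.40 ± 0.39 for VEGF and 0.62 ± 0.39 for Ang1 with all RNAs, and by 0.50 ± 0.29 and 0.27 ± 0.32 without them. Trem2, a receptor that signals through DAP12, differed by 0.0069 ± 0.42 and -0.44 ± 0.42 on RAE230B with all RNAs, and by -0.039 ± 0.45 and -0.29 ± 0.49 without them.

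Of the Toll-like receptor partners of Cd14, 5 of 7 were above 0 for VEGF and 4 of 7 for Ang1 on RAE230A (medians 0.060 and 0.15), and 2 of 5 for each on RAE230B (medians -0.060 and -0.22). Without untreated replicate 3 these were 3 of 7 for each (medians -0.033 and -0.040), and 2 of 5 for each (medians -0.11 and -0.27). Without the 2 libraries that stood apart they were 5 of 7 and 2 of 7 (medians 0.13 and -0.064), and 4 of 5 and 3 of 5 (medians 0.24 and 0.075). Tlr2 differed by 0.92 ± 0.59 for VEGF and 0.82 ± 0.59 for Ang1 with all RNAs, and by 0.50 ± 0.25 and 1.14 ± 0.27 without them. Tlr4, the lipopolysaccharide receptor itself, differed by -0.22 ± 0.38 and -0.14 ± 0.38 with all RNAs, and by 0.13 ± 0.25 and -0.097 ± 0.28 without them.

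Lysosome genes lay on both sides of 0, and Cd68, Gpnmb and Laptm5 encode proteins of that compartment. On RAE230A, 9 of 16 were above 0 for VEGF (median 0.12) and 8 of 16 for Ang1 (median 0.0024) against untreated, and 9 of 16 for each without the 2 libraries that stood apart (medians 0.014 and 0.015). Their centred mean was 0.027 to 0.25 in VEGF rings, 0.22, -0.56 and 0.24 in Ang1 rings, and 0.13, -0.69 and 0.18 in untreated rings, with the low values again in Ang1 replicate 2 and untreated replicate 2. Gpnmb was low in the same 2 libraries, and Cd68 was not. Ctsb, the protease cathepsin B, was higher in all VEGF than in all untreated RNAs, by 0.35 ± 0.22, and by 0.21 ± 0.13 without these libraries. On RAE230B the 1 lysosome gene kept had 0.076 for VEGF and -0.096 for Ang1, and -0.080 and -0.035 without them.

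**Figure D4:**
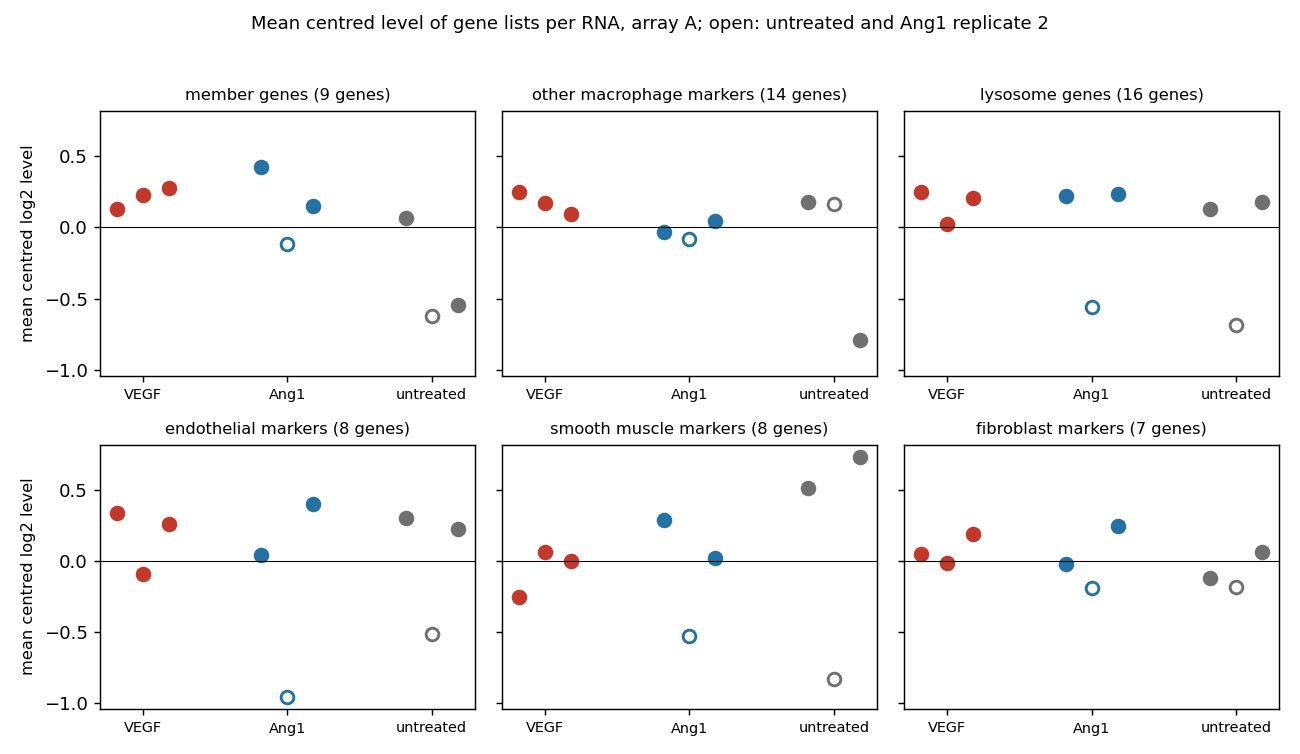
Mean of the centred log2 levels of the member genes, the wider macrophage markers, and the lysosome, endothelial, smooth muscle and fibroblast genes on RAE230A, 1 point per RNA, with VEGF, Ang1 and untreated from left to right and open points for Ang1 replicate 2 and untreated replicate 2. The wider macrophage markers drop to -0.79 in untreated replicate 3, and the lysosome genes to -0.69 in untreated replicate 2 and -0.56 in Ang1 replicate 2.

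Markers of other cells gave these values on RAE230A, with 0 genes past the test in every list. Osteoclast markers, which overlap with multinucleated macrophages, were above 0 in 3 of 3 for VEGF and 3 of 3 for Ang1 against untreated (medians 0.51 and 0.42), and their centred mean ranged from -1.10 to 0.11 over untreated rings, against 0.086 to 0.28 over VEGF rings. The -1.10 was that of untreated replicate 2: without the 2 libraries that stood apart, 2 osteoclast genes passed the filter, of which 1 was above 0 for VEGF and 0 for Ang1 (medians -0.078 and -0.31). Smooth muscle markers were above 0 in 2 of 8 for VEGF and 1 of 8 for Ang1 (medians -0.44 and -0.10), endothelial markers in 5 of 8 and 3 of 8 (medians 0.13 and -0.16), and fibroblast markers in 5 of 7 and 4 of 7 (medians 0.048 and 0.067). Without the 2 libraries, smooth muscle markers were above 0 in 1 of 8 for each (medians -0.88 and -0.45), endothelial markers in 3 of 8 and 4 of 8 (medians -0.12 and -0.0078), and fibroblast markers in 5 of 7 and 4 of 7 (medians 0.012 and 0.061). The 2 lymphocyte markers kept had medians of -0.17 and 0.13, the 2 mast cell markers 0.24 and -0.31, and the 1 dendritic marker 0.00014 and 0.34; without the 2 libraries these were -0.049 and 0.38, 0.46 and -0.15, and 0.19 and 0.24. The centred mean of the smooth muscle markers was -0.26 to 0.064 in VEGF rings, 0.28, -0.53 and 0.023 in Ang1 rings, and 0.52, -0.83 and 0.73 in untreated rings. Untreated replicate 3, lowest in the wider macrophage markers, was the highest in these. The member genes were lowest in untreated replicate 2, at -0.62 against -0.55 in untreated replicate 3, and smooth muscle markers were lowest in untreated replicate 2 too. Without untreated replicate 3, smooth muscle markers were above 0 in 3 of 8 for VEGF and 4 of 8 for Ang1 (medians -0.15 and 0.012). On RAE230B, the single lymphocyte marker kept, Ms4a1, had differences of 0.69 for VEGF and 1.25 for Ang1 against untreated, the endothelial one -0.41 and -0.74, and the fibroblast one 0.12 and 0.22. Without the 2 libraries these were 0.44 and 0.58, -0.50 and -0.48, and -0.053 and 0.24. Whether a shift between smooth muscle and macrophage RNA had a part in the members' differences was not tested.

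The genes whose levels ran most like the members were found from a profile, the mean of the centred levels of the 8 member genes other than Csf1 on RAE230A and of Cybb and Laptm5 on RAE230B. On RAE230A, over 7168 other genes and 9 RNAs, the highest Pearson correlations were those of Poldip2 at 0.906, Rnf114 at 0.896, Thrap3 at 0.890, Mtfr1l at 0.883 and Rexo2 at 0.880. Over the 7 RNAs without the libraries that stood apart they were 0.806, 0.874, 0.832, 0.752 and 0.743. On RAE230B, over 4032 genes, they were Rab20 at 0.974, Urb1 at 0.971, Mrpl17 at 0.971, Tmem219 at 0.970 and Srpk1 at 0.967 with 9 RNAs, and 0.832, 0.675, 0.874, 0.706 and 0.945 with 7. These values describe likeness over few RNAs that share 2 outlying libraries. None of the 10 genes is on the list of macrophage markers.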

How the data were processed

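Expression was measured in 9 RNAs of cultured rat aortic rings, each on 2 Affymetrix array types. The deposited values are signal intensities, and the submitters' processing notes name MAS5; the mean signal without the top and bottom 2% was 250.0 to 250.1 on 17 arrays and 94.8 on 1, Ang1 replicate 3 of RAE230B. Control probe sets (57 per type) were removed, log2(intensity + 16) was quantile normalised within each array type, and probe sets whose mean reached the 40th percentile were tested (9520 of 15923 on RAE230A, 9166 of 15333 on RAE230B). limma 3.58.1 in R 4.3.3 fitted the 3 groups together (lmFit, contrasts, eBayes with an intensity trend), with Benjamini-Hochberg adjustment within each array type at 0.05. With 9 arrays a type, the number of arrays limits the precision; the median residual SD was 0.44 on RAE230A and 0.50 on RAE230B. The script was tested on simulated data.

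Gene names come from the platform annotation, with symbols updated through RefSeq gene IDs. On RAE230A 12789 probe sets had 1 gene symbol, 312 several and 2822 none; on RAE230B these were 7570, 100 and 7663. Members and gene lists were chosen with earlier results of these data known. All members are named; of each other list, the brightest kept probe set per gene was used, and at most 2 genes per direction and comparison with the smallest unadjusted p could be named. Probe sets with correlation to the member profile were ranked for the 5 most alike per array type.

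Deviations of same-numbered RNAs in VEGF and untreated rings had correlations of 0.144 to 0.412 for RAE230A and 0.157 to 0.289 for RAE230B. Different-numbered RNAs of these groups had -0.341 to 0.102 and -0.212 to 0.061. In Ang1 and untreated rings same-numbered RNAs had 0.338 to 0.489 and 0.142 to 0.246, and different-numbered ones -0.449 to 0.334 and -0.234 to 0.097. For VEGF and Ang1 the same-numbered range was -0.146 to 0.235 and -0.212 to 0.232. Different-numbered RNAs of that pair of groups overlapped with it, at -0.239 to 0.193 and -0.2565 to 0.241. Animals were shared per the design text. Ang1 replicate 2 and untreated replicate 2, which stood apart, share a number. The Ang1 and untreated values therefore cannot show whether a number stands for an animal. No VEGF library stood apart, and same-numbered VEGF and untreated RNAs lay above different-numbered ones on both array types. Untreated replicate 2 enters those values too, and whether a number stands for an animal was not tested. The main fit had no replicate block, and a block was fitted only as an alternative. Alternatives changed the normalisation, pseudocount, filter, trend, groups fitted, replicate block and libraries.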

Additional observations from a re-analysis of the deposited data

How the results depend on the processing

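Each of the 42 member differences was recomputed under 19 alternatives; 58 of the 798 values had the opposite sign, 22 differences kept 1 sign throughout, 0 passed the adjusted threshold and the smallest adjusted p was 0.0772. Counts past the threshold stayed at 0 except with signals as deposited on RAE230B, where 117 probe sets passed for Ang1 against untreated and 25 for VEGF against Ang1; there Ang1 replicate 3 was deposited at another scale, and both counts were 0 once arrays were rescaled to 250, an alternative chosen after seeing the data, as were the counts without untreated replicate 3. With the replicate number as a block the counts were 0 in all comparisons, as without it. Counts of 0 in both fits do not show what a block did to the errors of the members. Signals as deposited turned Ang1 against untreated to -0.058 for Gpnmb, -0.19 for Cd68 and -1.08 for Cybb 1379344_at, and VEGF against Ang1 to 0.081 for Cd68; after rescaling these were -0.056, -0.19, -0.62 and 0.079. A common median gave -0.37, -0.51 and -0.99 for the first 3, -0.067 for Laptm5 1368006_at in VEGF against untreated, and 0.14 for Cd14 and 0.24 for Cd68 in VEGF against Ang1. Without both untreated replicate 2 and Ang1 replicate 2, VEGF against untreated was 0.13 for Cd68, 0.089 for Csf1 1380583_s_at and -0.40 for Laptm5 1383658_at, and VEGF against Ang1 was 0.21 for Csf1r, -0.62 for Csf1 1379631_at and -0.10 for Laptm5 1383658_at. The cause was not tested.

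Leaving out 1 library at a time, or both of those, VEGF against untreated ranged from -0.37 to 0.21 for Cd68, -0.25 to 0.45 for Laptm5 1368006_at, -0.40 to 1.28 for Laptm5 1383658_at, -0.047 to 0.43 for Csf1 1369354_at, -0.32 to 0.089 for Csf1 1380583_s_at, -0.0089 to 0.53 for Tyrobp and -0.024 to 0.60 for Csf1r. Ang1 against untreated ranged from -0.36 to 1.78 for Coro1a, -0.032 to 0.29 for Tyrobp, -0.31 to 0.62 for Gpnmb, -0.29 to 0.28 for Cd68, -0.12 to 0.48 for Cybb 1379344_at and -1.70 to 0.64 for Laptm5 1383658_at. VEGF against Ang1 ranged from -0.59 to 0.27 for Cd14, -0.32 to 0.14 for Cd68, -0.43 to 0.062 for Cybb 1369181_at, -0.094 to 0.45 for Tyrobp, -0.67 to 0.21 for Csf1r, -0.64 to 0.55 for Csf1 1379631_at and -0.11 to 2.20 for Laptm5 1383658_at.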

Other observations

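Of 6 mast cell genes on RAE230A, 2 passed the filter on low levels. Tpsb2, a tryptase of mast cells, read 7.67, 6.76 and 7.50 in VEGF rings, 5.27, 5.69 and 7.16 in Ang1 rings, and 7.10, 7.42 and 6.60 in untreated rings. VEGF against Ang1 was 1.27 ± 0.48 and Ang1 against untreated -1.002 ± 0.48, with adjusted p-values in limma of 0.972 and 0.953. Cpa3, the mast cell carboxypeptidase, differed by -0.15 ± 0.32 and 0.37 ± 0.32 in the same comparisons. Without Ang1 replicate 2 and untreated replicate 2, VEGF against Ang1 was 1.11 ± 0.51 for Tpsb2 and 0.12 ± 0.24 for Cpa3, and Ang1 against untreated was -0.63 ± 0.55 and 0.32 ± 0.26.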
